A study of Mus musculus with 12 samples.

Results

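T-HCC662 and T-HCC663, the 2 liver tumors of this series in which exome sequencing had found a Ctnnb1 mutation, were compared with the non-tumoral livers of the mice that carried them, called NT662 and NT663 here. These are 4 of the 12 RNA libraries and 2 of the 6 tumors, chosen by mouse and not by any expression value. All 4 libraries came from aged p21+/Tert mice on a C57BL/6 background, fed a standard diet, in which Tert is produced from the Cdkn1a (p21) promoter together with mCherry. The other 8 libraries were tumors and non-tumoral livers of 2 further p21+/Tert mice (T-HCC941 and T-HCA992, with NT941 and NT992) and of 2 p21+/TertCi mice (tumors TCi-HCC981 and TCi-HCA984, livers NT981 and NT984), which carry a catalytically inactive Tert in the same place and ate the same diet. The exome results listed no Ctnnb1 mutation for those tumors.

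Each tumor is 1 bulk library from 1 mouse, every group carries a Tert allele, and no library of a mouse without one was analysed here. Histology placed T-HCC662 among carcinomas of solid growth and T-HCC663, despite its name, among adenomas. The library used as NT662 is labelled p_961 in its sample title and bears the number of T-HCC662 in its table, and it was taken as the liver of that mouse because the table says so. Results are therefore also given without it.

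β-catenin, encoded by Ctnnb1, carries the signal of Wnt ligands to the nucleus, where it acts with TCF/LEF factors on target genes. In the healthy liver the pathway is active in the hepatocytes around the central vein, which make glutamine and take up ammonium, whereas hepatocytes around the portal vein carry out the urea cycle, gluconeogenesis and amino acid breakdown. Mutations that spare β-catenin from degradation are common in hepatocellular tumors of humans and mice, and Glul, Axin2 and Rhbg serve as their usual markers.

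Between 16020448 and 21549247 reads per library were counted on genes in the 4 libraries, against 14571716 to 26170661 in the whole series. Levels are given as CPM, counts per 1000000 of the TMM-scaled library, first for T-HCC662 and T-HCC663 and then for NT662 and NT663. Fold changes are on a log2 scale with their standard error (SE). Adjusted p values come from edgeR's quasi-likelihood test over 15182 genes with Benjamini-Hochberg adjustment, and a gene is said to have risen or fallen where its adjusted p was under 0.05. Fits that paired each tumor with its liver are named as such.

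The genes of the design were read first. The 3 markers Glul, Axin2 and Rhbg were high in both tumors, as described below, Xist lay at 0.179 and 0.475 CPM in the tumors and 0.357 and 0.384 CPM in the livers, and Ddx3y at 58.2 and 55.6 CPM and 63.0 and 79.9 CPM. Ctnnb1 itself was at 229.9 and 209 CPM in the tumors and 182 and 238 CPM in the livers, a log2 difference of 0.06 ± 0.32 (adjusted p = 0.949), with the tumor values inside the range of the livers. Tert was at 7.91 and 4.62 CPM against 17.5 and 11.6 CPM (adjusted p = 0.224). Counts per gene do not separate the native from the inserted Tert. Cdkn1a, the gene whose promoter drives the transgene and which encodes the cell cycle inhibitor p21, was at 38.6 and 32.4 CPM against 1.64 and 3.84 CPM, a log2 difference of 3.68 ± 1.03 that missed the threshold (adjusted p = 0.101). It passed by DESeq2 (adjusted p = 0.00108) and with only the 4 libraries compared (adjusted p = 0.0157). The 4 other tumors had 53.5 to 79.6 CPM of Cdkn1a and their livers 4.16 to 52.2 CPM, so that the log2 difference was 1.12 with all 6 livers as reference (adjusted p = 0.516).

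In both tumors, 178 genes rose (1.17% of those tested) and 187 fell (1.23%). The changes were large, with a median of 2.76 among those that rose and -3.19 among those that fell and a smallest size of 0.94, beside a median of 0 over all genes. With each tumor paired to its liver, 595 genes rose (3.92%) and 441 fell (2.9%), and these included 363 of the 365. DESeq2 called 770 genes higher and 615 lower. In edgeR without the pairing, 2699 of the 15182 genes had an unadjusted p under 0.05.

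The counts depended on each of the 4 libraries. Without NT662, 3 genes rose (0.0189%) and 32 fell (0.202%), all among the 365. Without NT663 the counts were 22 and 48, without T-HCC662 they were 44 and 38, and without T-HCC663 they were 117 and 75. Set against the 5 livers other than NT662, the tumors had 547 genes that rose (3.61%) and 305 that fell (2.01%), and 303 of the 365 were among them.

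The β-catenin signature, genes named for this pathway in the study of these tumors and so no independent evidence of a direction, was higher in both tumors. All 10 of its genes were higher in both tumors than in their livers, with a median log2 difference of 2.60, and 5 rose with an adjusted p under 0.05 (8 with the pairing and 8 against the 5 other livers). For this and the lists below, 67.5% of all genes tested changed in the same direction, up or down, in both pairs. Rhbg (GRCm38 chr3:88242874-88254709), the ammonium transporter of the cells around the central vein, was at 319.8 and 272 CPM in the tumors and 11.1 and 17.4 CPM in the livers. The tumors stood 20.8-fold above their livers, a log2 change of 4.38 ± 0.34 (adjusted p = 0.000622), and the call held without any 1 of the 4 libraries (adjusted p from 0.00675 to 0.012).

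Glul (chr1:153899944-153909723), which encodes glutamine synthetase, was among the most abundant transcripts of both tumors at 9419.5 and 10170 CPM, against 1104 and 1144 CPM in the livers. It rose 8.71-fold, by 3.12 ± 0.55 on the log2 scale (adjusted p = 0.0231), and neither tumor overlapped any of the other libraries. A near-identical copy, Glns-ps1, can share its reads. Axin2 (chr11:108920349-108950783), a scaffold of the β-catenin destruction complex and itself a Wnt target, was at 80.6 and 71.9 CPM against 13.998 and 9.80 CPM, a change of 2.68 ± 0.40 (adjusted p = 0.0115). For Glul the adjusted p ranged from 0.0559 to 0.241 when 1 of the 4 libraries was left out, and for Axin2 from 0.0389 to 0.122, being 0.241 and 0.0914 without NT662. Against the 5 other livers both remained past the threshold (adjusted p = 0.00374 and 0.000687).

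Nkd1 (chr8:88521354-88594884), a feedback inhibitor that binds dishevelled, was at 152 and 156 CPM in the tumors and 6.78 and 18.4 CPM in the livers and rose by 3.61 ± 0.65 (adjusted p = 0.0257). Slc13a3, a dicarboxylate transporter, was at 223 and 225 CPM against 33.6 and 18.7 CPM and rose by 3.10 ± 0.60 (adjusted p = 0.0347), but not against the 5 other livers (adjusted p = 0.104). Of these 5 genes, 1 or 2 were called when 1 of the 4 libraries was left out, and Rhbg was always one of them.

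The other 5 genes of the signature had the same direction and missed the threshold. Notum, a secreted enzyme that inactivates Wnt ligands, was at 150.4 and 189 CPM against 80.4 and 42.2 CPM (adjusted p = 0.0575, and 0.0474 with the pairing). Lgr5, an R-spondin receptor, was at 34.0 and 33.6 CPM against 7.93 and 8.01 CPM (adjusted p = 0.119, paired 0.0412). The TCF1 gene Tcf7 was at 20.3 and 21.1 CPM against 4.71 and 5.64 CPM (adjusted p = 0.0921, paired 0.0173). These 3 genes passed the threshold in the paired fit. The transcription factor gene Sp5 was at 38.9 and 35.3 CPM against 7.28 and 5.64 CPM (adjusted p = 0.105, paired 0.0572), and Tnfrsf19, a receptor of the TNF family, at 66.7 and 31.7 CPM against 7.57 and 11.6 CPM (adjusted p = 0.1). The tumors lay above both livers in each of these 5 genes.

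**Figure D1:**
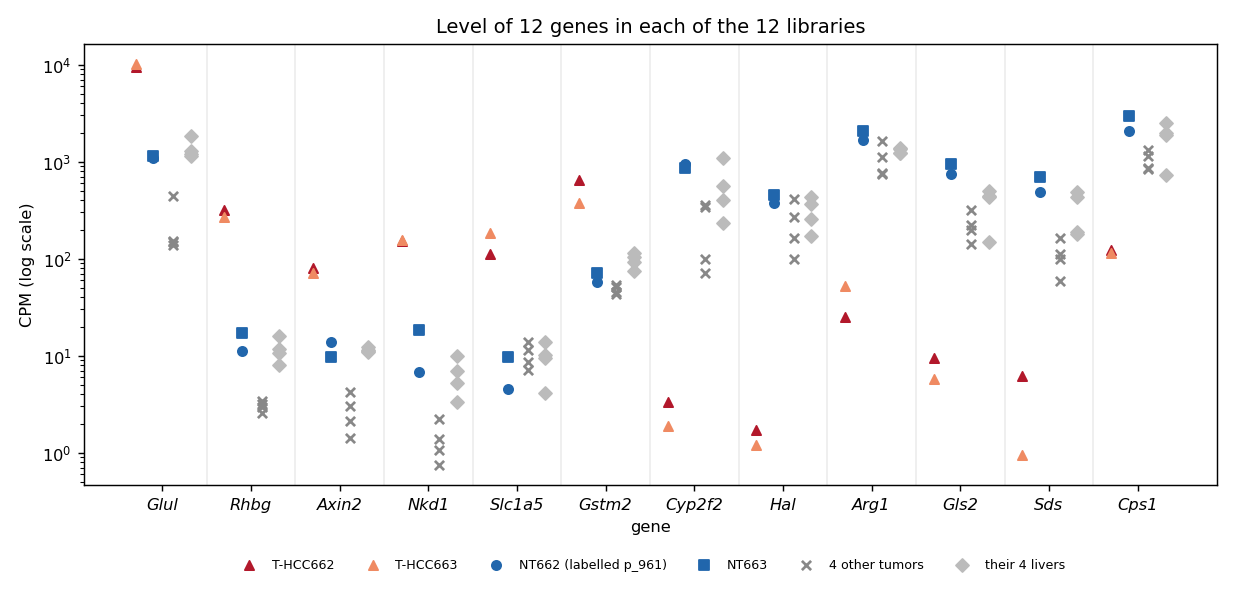
The plot gives the level of 12 genes in CPM on a log axis, with 1 point per library (triangles for T-HCC662 and T-HCC663, blue for their livers, crosses for the 4 other tumors, diamonds for their 4 livers). Glul, Rhbg, Axin2, Nkd1, Slc1a5 and Gstm2 lie above every other library in the 2 Ctnnb1-mutated tumors, and Cyp2f2, Hal, Arg1, Gls2, Sds and Cps1 lie below every other library.

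The promoters of the genes were read for the letters that TCF/LEF factors favour (CTTTG followed by AA, AT, TA or TT, on either strand). RefSeq promoters of GRCm38.p6 were used, from 250 bases before to 50 bases after the start of the gene, and 18.9% of the 27025 genes in the table hold at least 1 match, as do 14.2% of the 11191 tested genes found there. Among the genes that rose, 13 of the 122 found (10.7%) hold a match, and among those that fell 22 of 140 (15.7%). In the β-catenin signature 2 of the 7 genes found, Sp5 and Tnfrsf19, hold one, beside 7 of the 17 pericentral genes found (41.2%) and 3 of 16 periportal ones (18.8%). Of the genes with the smallest p, Mtmr11, which rose, and Hal and Aspg, which fell, also hold one. Glul and Axin2 have none within this window. Rhbg, Notum and Lgr5 were not found among these promoters and so could not be read. The same holds for Fam84b, Endod1, Gipc2, Ido2, Mn1, Arg1 and Gls2, which are also among the genes with the smallest p. The 250 bases before the start of Sp5, Mtmr11 and Glul, on the + strand at chr2:70474673-70474922, chr3:96161720-96161969 and chr1:153899679-153899928, are shown 5′ to 3′ with each match in capitals, since they are a signature gene with 2 matches, a risen gene with 1 and the most abundant marker with none.
Sp5: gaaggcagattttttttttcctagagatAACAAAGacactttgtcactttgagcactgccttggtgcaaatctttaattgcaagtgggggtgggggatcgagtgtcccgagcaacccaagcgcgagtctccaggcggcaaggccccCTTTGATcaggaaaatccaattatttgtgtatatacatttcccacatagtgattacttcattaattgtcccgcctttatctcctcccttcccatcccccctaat
Mtmr11: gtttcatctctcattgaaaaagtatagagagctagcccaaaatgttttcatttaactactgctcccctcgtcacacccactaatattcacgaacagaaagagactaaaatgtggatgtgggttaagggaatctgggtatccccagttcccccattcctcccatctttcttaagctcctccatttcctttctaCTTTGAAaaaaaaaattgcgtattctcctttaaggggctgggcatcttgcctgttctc
Glul: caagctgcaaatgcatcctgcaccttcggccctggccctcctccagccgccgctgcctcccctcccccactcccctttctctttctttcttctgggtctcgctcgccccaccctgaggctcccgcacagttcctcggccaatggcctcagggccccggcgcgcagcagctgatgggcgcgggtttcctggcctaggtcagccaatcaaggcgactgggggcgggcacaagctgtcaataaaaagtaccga
The matches of Sp5 begin 222 and 104 bases before its start, and that of Mtmr11 begins 58 bases before. A match is a description of these letters and not of a bound site.

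Few other genes of the Wnt pathway passed the edgeR test without the pairing. Of 26 listed genes 24 were tested, with a median log2 difference of -0.34, and 1 fell while none rose. DESeq2 called 3 higher and 4 lower, and 3 were higher and 7 lower at an unadjusted p under 0.05 in edgeR. Over all 15182 genes, DESeq2 called 770 higher and 615 lower, and 2699 had an unadjusted p under 0.05 in edgeR. Lgr4, an R-spondin receptor, was at 27.5 and 29.1 CPM in the tumors and 73.3 and 81.9 CPM in the livers and fell by -1.46 ± 0.25 on the log2 scale (adjusted p = 0.0209). The call was lost without any 1 of the 4 libraries. With the pairing, 1 gene of the list rose and 4 fell. Rnf43 and Znrf3, ligases that remove Wnt receptors from the cell surface, were higher in both tumors, at 122 and 141 CPM against 47.3 and 41.6 CPM (adjusted p = 0.0685) and at 35.1 and 32.8 CPM against 16.1 and 12.6 CPM (adjusted p = 0.0538, paired 0.0326). Lef1 was at 7.56 and 5.66 CPM against 0.0714 and 0.320 CPM (adjusted p = 0.165) and Tbx3, a factor of the pericentral hepatocyte, at 139.6 and 135 CPM against 62.8 and 37.0 CPM (adjusted p = 0.359).

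Most listed genes of the periportal hepatocyte fell. Of 23 listed genes 14 fell and none rose, with a median log2 difference of -3.20, and 19 were lower in both tumors. The count was 16 with the pairing, 13 against the 5 other livers, and between 7 and 10 when 1 of the 4 libraries was left out (9 without NT662). Several were nearly silent in the tumors. Cyp2f2 (chr7:27119909-27133660), the periportal cytochrome P450, was at 3.35 and 1.90 CPM against 940.8 and 872 CPM, 345-fold lower and a log2 change of -8.43 ± 0.60 (adjusted p = 0.000622). Hal (chr10:93488768-93519304), which starts histidine breakdown, was at 1.70 and 1.21 CPM against 377 and 459 CPM, 287-fold lower and a change of -8.16 ± 0.64 (adjusted p = 0.000622).

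Several of the other periportal genes that fell encode enzymes of amino acid breakdown. Gls2, the liver glutaminase, was at 9.43 and 5.79 CPM in the tumors and 756 and 944 CPM in the livers (log2 change -6.80 ± 0.66, adjusted p = 0.0023). Sds, the serine dehydratase, was at 6.17 and 0.950 CPM against 489 and 696 CPM (-7.38 ± 1.03, adjusted p = 0.00914), and its relative Sdsl at 0.268 and 0.389 CPM against 22.8 and 45.7 CPM (-6.67 ± 0.71, adjusted p = 0.00358). In all 3 genes the tumors and livers were far apart in both mice. Uroc1, the urocanase of histidine breakdown, was at 102 and 89.1 CPM against 700.1 and 671 CPM (-2.84 ± 0.39, adjusted p = 0.00836). Gldc, the glycine decarboxylase, was at 2.46 and 1.86 CPM against 85.3 and 136 CPM (-5.67 ± 0.62, adjusted p = 0.00388). The aldehyde dehydrogenase gene Aldh1b1 was at 5.50 and 6.05 CPM against 91.3 and 255 CPM (-4.91 ± 0.69, adjusted p = 0.00914). Hsd17b13, a lipid droplet enzyme, was at 72.4 and 68.3 CPM against 328 and 450.1 CPM (-2.47 ± 0.38, adjusted p = 0.0126), and Ftcd and Etnppl also fell.

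Of the 9 periportal genes that missed the threshold, Pck1, the rate-limiting enzyme of gluconeogenesis, was at 349 and 224 CPM against 2238 and 3392 CPM (adjusted p = 0.098, and 0.0181 with the pairing). The tumors parted in 2 of these genes. The E-cadherin gene Cdh1 was at 0.760 CPM in T-HCC662 but 86.9 CPM in T-HCC663, with 28.4 and 47.1 CPM in the livers, and the cathepsin C gene Ctsc at 14.1 and 87.5 CPM with 37.2 and 57.1 CPM in the livers. In both genes T-HCC662 lay below the livers and T-HCC663 above them.

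Beyond Glul and Rhbg, which are pericentral too but were counted in other lists, 22 further pericentral genes were read. None of these rose and 1 fell (6 and 1 by DESeq2, and 7 higher and 2 lower at an unadjusted p under 0.05), with a median log2 difference of 0.74, and 14 were higher in both tumors. With the pairing 4 rose, among them Gstm3, Slc22a3 and Lect2. Gstm3, a glutathione transferase, was at 1382 and 1455 CPM against 53.4 and 117 CPM (adjusted p = 0.0714, paired 0.00991). Oat, which makes glutamate from ornithine, was at 7723 and 3888 CPM against 1441 and 1386 CPM (adjusted p = 0.194), and the glutamate transporter gene Slc1a2 at 2305 and 1513 CPM against 218 and 253 CPM (adjusted p = 0.217). Both tumors were above both livers in these 3 genes. Cyp2e1, the classic pericentral P450, was at 5795 and 4987 CPM against 6448 and 4018 CPM, a log2 difference of 0.04 ± 1.00 (adjusted p = 0.99), so its direction could not be told at this precision. The member that fell was Cyp8b1, the enzyme that sets the share of cholic acid, at 8.54 and 3.07 CPM against 418 and 173 CPM (-5.67 ± 0.83, adjusted p = 0.01).

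Nitrogen handling changed on both its sides. Among 18 tested genes of glutamine and ammonia, 3 rose and 2 fell, with a median log2 difference of -0.13. Besides Rhbg and Glul, the glutamine carrier gene Slc1a5 (chr7:16781340-16798274) rose, from 4.50 and 9.61 CPM in the livers to 112 and 184 CPM in the tumors (4.38 ± 0.59, adjusted p = 0.00786). Besides Gls2, Slc38a3 fell, a sodium-coupled glutamine transporter, from 3466 and 3329 CPM to 1022 and 912 CPM (-1.81 ± 0.37, adjusted p = 0.0396), though not against the 5 other livers (adjusted p = 0.219). Leaving out 1 of the 4 libraries left 1 or 2 of the genes that rose and 1 of those that fell.

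In the urea cycle 4 of 8 genes fell and none rose, with a median of -2.24, and 7 were lower in both tumors. Arg1 (chr10:24915221-24927484), the arginase, was at 25.2 and 51.8 CPM against 1674 and 2098 CPM (-5.61 ± 0.49, adjusted p = 0.0013). Cps1, the entry enzyme of the cycle, was at 124 and 115 CPM against 2089.5 and 2935 CPM (-4.39 ± 0.53, adjusted p = 0.00521). The next enzyme gene, Otc, was at 83.8 and 77.2 CPM against 429 and 440.0 CPM (-2.43 ± 0.48, adjusted p = 0.0363). Both tumors were below both livers by a wide margin in these genes. Ass1, which makes argininosuccinate, was at 75.02 and 61.9 CPM against 575 and 687 CPM (-3.20 ± 0.62, adjusted p = 0.033), with the reservation that a near-identical copy, Gm5424, can share its reads. The paired fit added Asl, and leaving out 1 of the 4 libraries left 1 or 2 genes (2 without NT662).

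Of 13 genes of methionine and glycine metabolism 4 fell, with a median of -1.19, and 11 were lower in both tumors. They were Gldc, the glycine methyltransferase gene Gnmt, and both genes of transsulfuration, Cbs and Cth. Gnmt was at 256 and 350.4 CPM against 1636 and 2060.1 CPM (-2.61 ± 0.42, adjusted p = 0.0171) and Cth at 87.6 and 75.3 CPM against 446 and 420.2 CPM (-2.41 ± 0.34, adjusted p = 0.00914). Only 1 of the 4 was called when any 1 of the 4 libraries was left out.

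**Figure D2:**
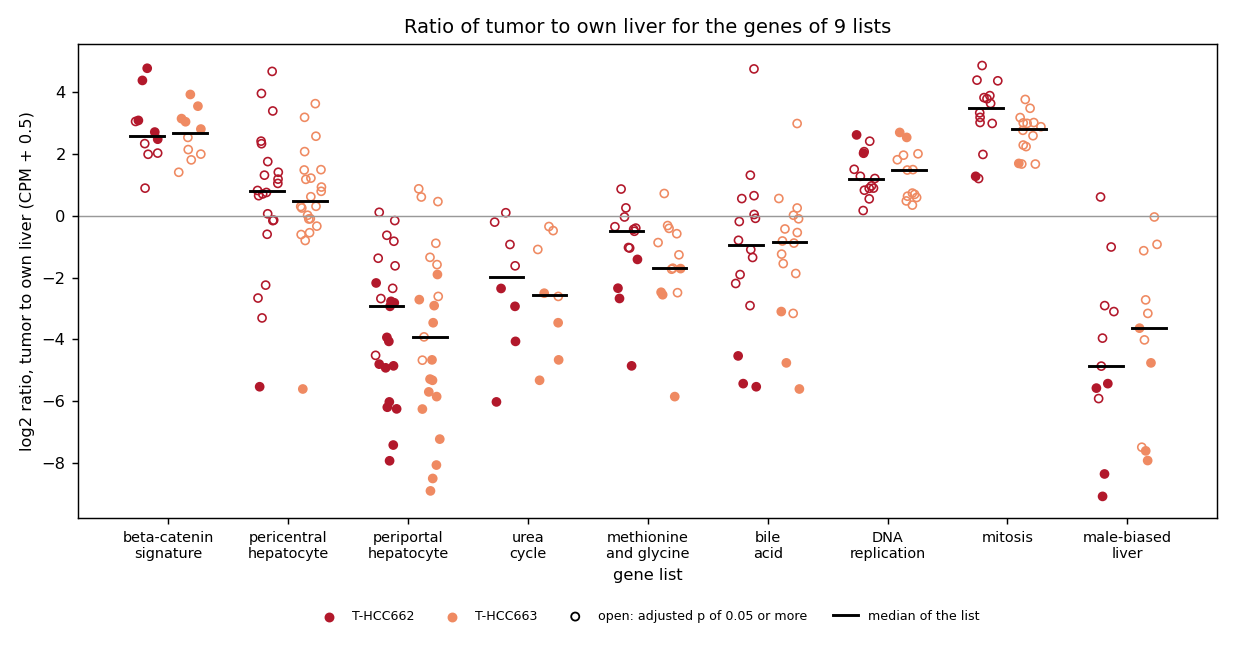
Each point is the log2 ratio of tumor to own liver (CPM + 0.5) of 1 gene, for T-HCC662 in red and T-HCC663 in orange, in 9 gene lists, with filled points for genes of adjusted p under 0.05 and a bar at the median of the list. The β-catenin signature, DNA replication and mitosis lie above 0 in both mice, and most periportal and urea cycle genes lie below it.

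Among 16 bile acid genes 3 fell and none rose, with a median of -0.73. Besides Cyp8b1, they were uptake carriers of the hepatocyte. Slc10a1, the sodium-dependent bile acid carrier, was at 23.3 and 54.6 CPM against 551 and 471 CPM (-3.71 ± 0.68, adjusted p = 0.0263), and Slco1a1, an organic anion carrier, at 7.33 and 8.34 CPM against 338 and 239 CPM (-5.20 ± 0.52, adjusted p = 0.0027), the latter not against the 5 other livers (adjusted p = 0.111). With the pairing 1 gene rose and 5 fell.

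Slco1a1 also belongs to the genes that male livers express more than female ones, and 4 of 11 such genes fell, with a median of -4.40. Hsd3b5, a steroid reductase that can share reads with its near-identical copy Gm4450, was at 0.492 and 0.950 CPM against 325 and 352 CPM (-8.86 ± 1.08, adjusted p = 0.00537), Susd4 at 0.224 and 0.864 CPM against 34.1 and 16.5 CPM (-5.52 ± 0.66, adjusted p = 0.00521), and Serpina1e, of a family of near-identical copies, at 23.1 and 71.3 CPM against 12806 and 14041 CPM (-8.15 ± 1.61, adjusted p = 0.0363). NT662 and NT663 stood high in this list. The 4 other livers had 0.127 to 64.5 CPM of Hsd3b5 and 805 to 8681 CPM of Serpina1e. Against the 5 other livers 1 of the 11 genes fell, whereas the paired fit gave 8. None of 11 tested female-biased genes was called in edgeR without the pairing and 1 rose with it, while 1 rose and 1 fell by DESeq2, and 1 was higher and 1 lower at an unadjusted p under 0.05.

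Outside these lists, the genes with the smallest p among those that rose formed no single pathway. Eps8l3, an adaptor of receptor signaling to the actin skeleton, was at 26.8 and 32.6 CPM in the tumors and 2.29 and 2.82 CPM in the livers (3.54 ± 0.34, adjusted p = 0.0023). Gipc2, a PDZ-domain protein, was at 40.1 and 31.0 CPM against 0.214 and 0.641 CPM, the largest change of the 10 at 6.34 ± 0.73 (adjusted p = 0.00473). Wnk4, a kinase that controls chloride cotransporters, was at 111 and 91.1 CPM against 5.28 and 8.90 CPM (3.83 ± 0.45, adjusted p = 0.00521). In each of these genes both tumors lay well above both livers.

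Gstm2, a glutathione transferase, was at 649 and 375 CPM against 57.8 and 70.8 CPM (2.99 ± 0.33, adjusted p = 0.00388), and the small GTPase gene Rhoc at 35.6 and 47.0 CPM against 8.57 and 10.6 CPM (2.11 ± 0.24, adjusted p = 0.00473). The myotubularin-related Mtmr11 was at 65.9 and 53.6 CPM against 7.07 and 7.94 CPM (2.99 ± 0.33, adjusted p = 0.00388). Endod1, Ccdc120 and Fam84b rose by 3.15, 3.62 and 2.81. Without NT662, Rhbg and Eps8l3 stayed past the threshold and the adjusted p of the other 8 of these 10 genes lay between 0.0532 and 0.0661. Transcripts with a stretch identical to another annotated gene can share its reads, which concerns Rhbg, Eps8l3, Fam84b, Gipc2 and Mtmr11, and among the genes above Ctnnb1, Cdkn1a, Xist and Sds.

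The genes with the smallest p among those that fell were, besides Cyp2f2, Hal, Arg1 and Gls2, of several kinds. Sfxn1, the mitochondrial serine carrier, was at 2.24 and 3.802 CPM against 122 and 145 CPM (-5.46 ± 0.43, adjusted p = 0.000622). Aspg, an asparaginase, was at 3.58 and 4.45 CPM against 782 and 544 CPM (-7.37 ± 0.66, adjusted p = 0.0015). Ido2, an enzyme of tryptophan breakdown, was at 10.4 and 7.43 CPM against 116 and 92.6 CPM (-3.55 ± 0.27, adjusted p = 0.000622). Each of these was lower in both tumors than in either liver.

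Mn1, a transcriptional coregulator, was at 1.25 and 1.30 CPM against 42.6 and 49.0 CPM (-5.16 ± 0.39, adjusted p = 0.000622), and the mannosyltransferase gene Dpy19l3 at 0.894 and 1.86 CPM against 63.6 and 71.6 CPM (-5.61 ± 0.56, adjusted p = 0.0027). Mup21, of the major urinary proteins and near-identical to Mup3, was at 2.28 and 1.17 CPM against 359 and 310.2 CPM (-7.60 ± 0.56, adjusted p = 0.000622). Without NT662, the log2 changes of these 10 genes ran from -8.37 for Cyp2f2 to -3.38 for Ido2.

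Genes of cell division were higher in both tumors, but few passed the test. All 13 DNA replication genes were higher in both, with a median log2 difference of 1.83, and 2 rose. They were subunits of the replicative helicase, Mcm6 at 15.8 and 25.7 CPM against 2.14 and 3.52 CPM (2.87 ± 0.59, adjusted p = 0.0404) and Mcm2 at 16.4 and 12.5 CPM against 3.64 and 1.73 CPM (2.43 ± 0.51, adjusted p = 0.0431). All 14 mitosis genes were higher in both, with a median of 3.89, and 1 rose, the spindle kinase gene Aurka, at 14.1 and 15.9 CPM against 5.50 and 4.55 CPM (1.58 ± 0.32, adjusted p = 0.0394).

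The pairing changed these counts to 5 of 13 and 12 of 14, and against the 5 other livers 2 and 9 rose, while none was called with any 1 of the 4 libraries left out. Mki67, the proliferation marker, was at 53.8 and 52.7 CPM against 1.36 and 3.40 CPM (adjusted p = 0.109, paired 0.00726), and the 4 other tumors spanned 3.10 to 49.2 CPM. Top2a was at 17.3 and 16.6 CPM against 0.786 and 1.02 CPM (adjusted p = 0.146, paired 0.0029). Of 16 genes of G1 and its inhibitors 1 rose, Cdkn2c, which encodes the inhibitor p18, at 19.1 and 28.7 CPM against 4.57 and 3.52 CPM (2.56 ± 0.48, adjusted p = 0.029), and the pairing added Ccnd1, at 103 and 123 CPM against 18.4 and 42.2 CPM (adjusted p = 0.0921, paired 0.0189).

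Single genes were called in the stress, chemokine and interferon lists, where 1.17% of all genes tested rose and 1.23% fell. Single calls do not set these lists apart from all genes. Of 18 Nrf2 and antioxidant genes 1 rose (median 0.60), Nupr1, a stress-response regulator, at 85.8 and 53.8 CPM against 1.64 and 4.04 CPM (4.61 ± 0.73, adjusted p = 0.0158), and 4 rose with the pairing. Of 13 tested chemokines 1 fell (median 1.65), Cxcl12, which draws lymphocytes through Cxcr4, at 94.96 and 89.5 CPM against 415 and 456 CPM (-2.24 ± 0.47, adjusted p = 0.0425). Of 10 interferon-stimulated genes 1 rose (median 1.48), Usp18, a brake on interferon signaling, at 42.7 and 50.4 CPM against 8.14 and 12.0 CPM (2.21 ± 0.39, adjusted p = 0.0237). The calls of Cxcl12 and Usp18 were lost with any 1 of the 4 libraries left out, and that of Nupr1 held only without T-HCC663.

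None of the 7 oncofetal genes tested was called by edgeR or DESeq2, and 1 was higher at an unadjusted p under 0.05. Afp, the fetal counterpart of albumin, was at 11.8 and 12.0 CPM against 7.00 and 2.88 CPM, with 29.2 to 231 CPM in the 4 other tumors. Gpc3, a cell-surface proteoglycan of liver cancer, was at 0.0447 and 0.518 CPM in the Ctnnb1-mutated tumors and 10.8 to 388 CPM in the others. The imprinted H19 RNA was at 60.0 CPM in T-HCC662 but 4.15 CPM in T-HCC663, with 0.643 and 0.961 CPM in the livers. In edgeR no adjusted p under 0.05 was found among 13 hepatocyte transcription factors or 14 secreted liver proteins, whereas DESeq2 called 1 and 3 lower, as many as were lower at an unadjusted p under 0.05. Of the latter 12 were lower in both tumors, with a median of -0.89, and Alb was at 16491 and 5897 CPM against 26721 and 22359 CPM.

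The change from liver to tumor was then tested against the same change in the other 4 tumors, an interaction term whose sides share no library. The difference passed the threshold for 142 genes, upward for 64 (0.422% of those tested) and downward for 78 (0.514%), and 75 of the 142 were among the 365. With the mouse as a block it passed upward for 218 (1.44%) and downward for 242 (1.59%). Of the 178 genes that rose, 105 were also higher than the liver in all 4 other tumors and 21 were lower in all 4, and of the 187 that fell, 102 were lower in all 4 and 16 were higher. The same counts were not made over all genes tested, so no excess can be read from them.

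The β-catenin signature changed differently in the 2 kinds of tumor. For 8 of its 10 genes the difference passed the threshold, with a median of 4.82 on the log2 scale beside 0.03 over all genes. Rhbg was at 2.60 to 3.45 CPM in the other tumors and 7.98 to 16.2 CPM in their livers, a difference in change of 6.29 ± 0.41 (adjusted p = 0.000694). Glul was at 138 to 445 CPM and 1153 to 1860.4 CPM (5.84 ± 0.68, adjusted p = 0.00469), and Axin2 at 1.43 to 4.20 CPM and 10.9 to 12.4 CPM (4.79 ± 0.50, adjusted p = 0.00326). All 3 markers were thus lower in each of the 4 other tumors than in their livers. Rnf43, which missed the threshold against the own livers, passed it here (2.69 ± 0.46, adjusted p = 0.0332).

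Periportal genes differed in the opposite sense. The change of 11 of 23 was lower in the Ctnnb1-mutated tumors, with a median difference of -3.41. Cyp2f2 was at 72.1 to 356 CPM in the other tumors (-6.86 ± 0.60, adjusted p = 0.00142), Hal at 100.4 to 418 CPM (-7.63 ± 0.67, adjusted p = 0.00142) and Arg1 at 742 to 1620.3 CPM (-5.25 ± 0.53, adjusted p = 0.00302). Hsd17b13 was at 519 to 1353 CPM in the other tumors (-4.16 ± 0.46, adjusted p = 0.00426). Ass1, in contrast, was at 29.3 to 76.9 CPM in the other tumors, and its difference was -0.73 ± 0.70 (adjusted p = 0.693), so its loss could not be told from that in the other tumors.

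Of the urea cycle genes, Arg1 and Cps1 passed this test. In the pericentral list 3 of 22 passed it upward, with a median difference of 2.86, among them Oat, at 35.8 to 185 CPM in the other tumors (6.30 ± 0.99, adjusted p = 0.0257), and Slc22a3. Slc1a5 was at 7.18 to 13.8 CPM in the other tumors (4.22 ± 0.67, adjusted p = 0.0257). No gene of the DNA replication, mitosis, Nrf2, chemokine, interferon-stimulated or bile acid lists passed it.

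Further genes with the smallest p of this difference were Lhpp, a histidine phosphatase, at 957 and 540.5 CPM in the Ctnnb1-mutated tumors, 109 and 127 CPM in their livers and 6.70 to 21.3 CPM in the other tumors (6.05 ± 0.60, adjusted p = 0.00302). Sfxn1 was at 73.1 to 239 CPM in the other tumors (-5.77 ± 0.48, adjusted p = 0.00142). Spry4, an inhibitor of receptor tyrosine kinase signaling, was at 1.43 and 0.864 CPM against 17.4 and 13.1 CPM in the livers and 10.9 to 27.1 CPM in the other tumors (-5.55 ± 0.49, adjusted p = 0.00142). The livers of the other tumors had 76.2 to 191 CPM of Lhpp, 84.0 to 151 CPM of Sfxn1 and 4.47 to 6.71 CPM of Spry4, so that Lhpp was below and Spry4 above their livers in all 4 other tumors.

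Itih5, of the inter-α-trypsin inhibitor heavy chains, was at 9.12 and 10.3 CPM against 11.7 and 11.5 CPM, -0.25 ± 0.27 (adjusted p = 0.69), but at 132 to 226 CPM in the other tumors, a difference of -4.53 ± 0.35 (adjusted p = 0.00142). By contrast Fam84b and Mtmr11 were at 49.6 to 56.1 CPM and 51.8 to 101 CPM in the other tumors, with differences of 0.28 ± 0.34 (adjusted p = 0.765) and -0.41 ± 0.38 (adjusted p = 0.677). The number of genes passing this test ran from 38 to 270 when 1 of the 12 libraries was left out, with 38 without NT663, 42 without NT662, 40 without T-HCC662, 76 without T-HCC663, 61 without T-HCC941, 69 without NT941, 76 without T-HCA992, 91 without NT984 and 270 without TCi-HCA984.

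**Figure D3:**
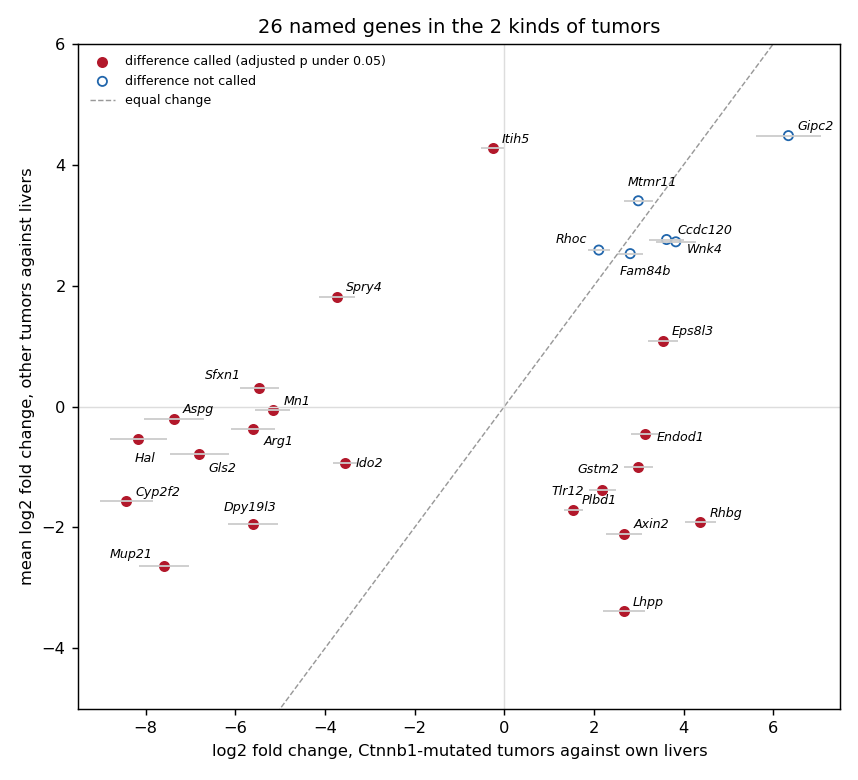
The plot sets the log2 fold change of the Ctnnb1-mutated tumors against their own livers (horizontal axis, bars are ± SE) against the mean log2 fold change of the other tumors (vertical axis) for 26 named genes, filled where the difference passed an adjusted p of 0.05. Rhbg, Axin2, Lhpp, Plbd1 and Tlr12 lie at lower right, Itih5 and Spry4 at upper left, and Gipc2, Ccdc120, Wnk4, Fam84b, Mtmr11 and Rhoc are open points near the line of equal change.

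The 2 tumors were not alike in every gene. The genes with the widest gap between their ratios, a description with no test, included Gsn, the actin-severing gelsolin, at 4.52 CPM in T-HCC662 but 185 CPM in T-HCC663, with 14.2 and 12.9 CPM in the livers. Lamc3, a laminin chain, was at 0.224 and 63.3 CPM, with 5.36 and 1.41 CPM in the livers, and the homeobox gene Irx1 at 0.0447 and 30.2 CPM, with 6.28 and 5.96 CPM in the livers. These 3 genes and Cdh1 were far higher in T-HCC663.

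In the other direction, Fmr1nb, known from the testis, was at 79.3 CPM in T-HCC662 but 0 CPM in T-HCC663, with 0 and 0.961 CPM in the livers. Cyp17a1, a steroid hydroxylase, was at 146 and 2.85 CPM, with 9.07 and 37.6 CPM in the livers. Xlr3a, whose reads can be shared with its near-identical copies Xlr3b and Xlr3c, was at 37.7 and 0.0432 CPM, with 4.57 and 8.39 CPM in the livers. The last of these genes, Ly6d, was high in both tumors but unequally so, at 1422 and 143 CPM against 1.000 and 16.8 CPM (adjusted p = 0.0775, and 0.017 against the 5 other livers).

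Markers of cell types that share the tissue were read in each library, since in bulk RNA fewer cells of a type and less RNA per cell cannot be told apart. In 13 lists of cell type markers, that of hepatocytes among them, none of the 94 genes tested passed the edgeR test without the pairing. With the pairing 8 rose and 9 fell, and by DESeq2 3 rose and 6 fell. At an unadjusted p under 0.05 in edgeR 5 were higher and 8 lower. Over all 15182 genes, DESeq2 called 770 higher and 615 lower, and 2699 had an unadjusted p under 0.05 in edgeR. The summed level of 5 hepatocyte markers was 42330 and 23287 CPM in the tumors, against 56331 and 55693 CPM in the livers and 102310 to 125860 CPM in the other tumors. Both tumors thus lay below every other tumor, and the part of this in the results above was not tested. The livers of the other tumors had 42241 to 55567 CPM, so that T-HCC662 lay inside their range and T-HCC663 below it. The other tumors lay above every liver.

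Stellate cell and fibroblast markers summed to 40.7 and 101 CPM in the tumors, against 165 and 241 CPM in their livers and 201 to 480 CPM in the other tumors, and 5 of 11 fell with the pairing (Des, Lrat, Dcn, Colec11 and Reln). Bile duct markers summed to 3.93 and 5.14 CPM against 11.2 and 12.4 CPM, and the progenitor factor gene Sox9 fell with the pairing and differed from its change in the other tumors (-3.52 ± 0.54, adjusted p = 0.0247). Sinusoidal endothelial markers summed to 119 and 203 CPM against 277 and 243 CPM, and Clec4g and Ptprb fell with the pairing. All 3 lists were lower in both tumors than in their own livers by their sum. The livers of the other tumors had 73.6 to 338 CPM of stellate, 9.48 to 21.6 CPM of bile duct and 112 to 351 CPM of sinusoidal markers. T-HCC663 lay inside this range for stellate markers and both tumors for sinusoidal ones, whereas both lay below it for bile duct markers.

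Kupffer cell and macrophage markers summed to 335 and 1374 CPM in the tumors, against 215 and 466 CPM in the livers, with 5 of 11 that rose in the paired fit (Adgre1, C1qa, C1qb, C1qc and Cd68). The livers of the other tumors had 195 to 1922 CPM of these markers, a range that held both tumors. Of 6 markers of monocytes and recruited macrophages, Trem2 and Gpnmb rose with the pairing. The defining markers split by tumor. Clec4f, the marker of resident Kupffer cells, was at 2.50 CPM in T-HCC662 but 179.9 CPM in T-HCC663, with 61.1 and 94.9 CPM in the livers, and in T-HCC662 Marco was at 0 CPM and Timd4 at 0.0447 CPM.

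T cell markers summed to 12.0 and 31.1 CPM in the tumors against 9.21 and 11.5 CPM in the livers, with 5.06 to 49.98 CPM in the other tumors. Dendritic cell markers summed to 15.3 and 30.5 CPM against 9.21 and 14.5 CPM, and Itgax rose with the pairing. B and plasma cell markers summed to 7.11 and 13.5 CPM against 22.5 and 29.1 CPM, and Jchain fell with the pairing. Red blood cell markers summed to 339 and 1551 CPM against 438 and 767 CPM. The T and dendritic cell sums were thus higher in each tumor than in its liver and the B cell sums lower. The livers of the other tumors had 2.33 to 25.3 CPM of T cell, 8.92 to 51.5 CPM of dendritic cell and 4.36 to 153 CPM of B cell markers. Only the T cell sum of T-HCC663 lay outside these ranges, so the sums do not set the tumors apart from livers in general.

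**Figure D4:**
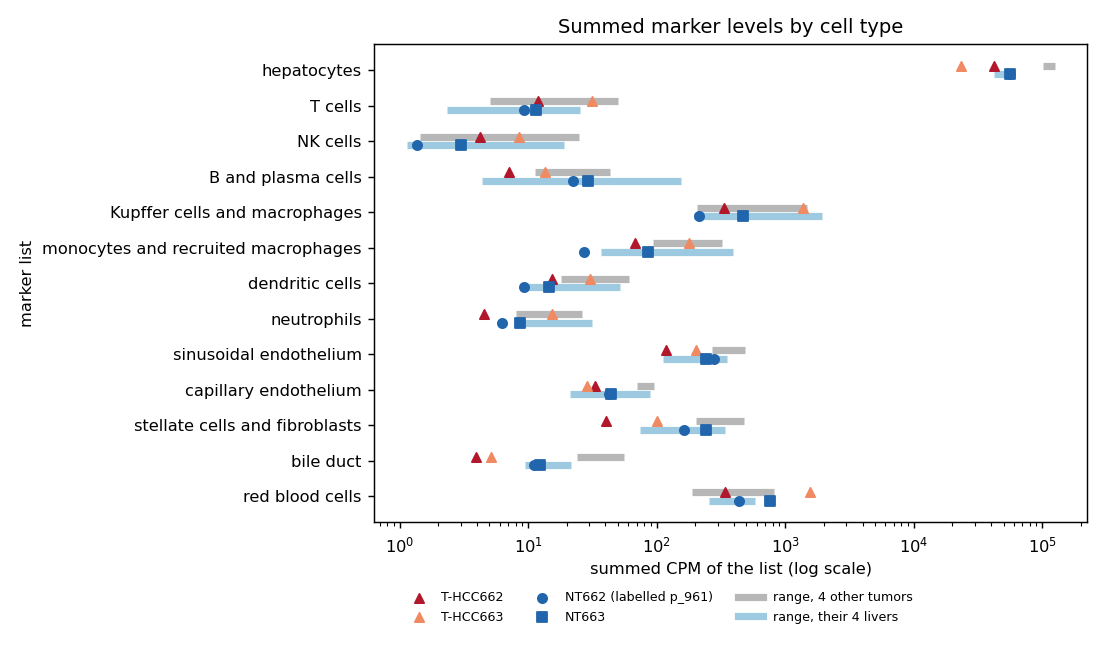
The plot gives the summed CPM of 13 lists of cell type markers on a log axis, with triangles for T-HCC662 and T-HCC663, blue points for their livers and bars for the range of the 4 other tumors and of their 4 livers. Both tumors lie left of the other tumors in hepatocyte, stellate cell and bile duct markers, for hepatocytes at 42330 and 23287 CPM against 102310 or more.

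Median expression by chromosome was read as a description, since it can be moved by gains and losses of chromosomes. Over genes of at least 1 CPM, the median log2 ratio of tumor to own liver, less that of all genes, was highest on chromosome 15 in T-HCC662 at 0.59 over 539 genes, 80.7% of which lay above 0. In T-HCC663 chromosome 15 was also highest, at 0.23 over 545 genes. In T-HCC662 chromosome 4 was lowest at -0.32 over 834 genes, with chromosome 19 at -0.21. In T-HCC663 every other chromosome lay between -0.18 and 0.07. The lowest of these was chromosome 14, where the ratios of 451 genes were spread widely, with quartiles at -1.03 and 0.78. On the other chromosomes of T-HCC663 the lower quartile lay between -0.56 and -0.28 and the upper between 0.30 and 0.71, and chromosome 14 of T-HCC662 had quartiles at -0.41 and 0.42. Restricting the genes to at least 10 CPM gave 0.60 and 0.23 for chromosome 15 and -0.35 for chromosome 4 in T-HCC662. Of the other tumors, chromosome 15 was at 0.06 to 0.41. Glul, Axin2 and Rhbg lie on chromosomes 1, 11 and 3, whose medians lay between -0.065 and 0.0563 in both tumors. Copy number at these genes was not tested.

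**Figure D5:**
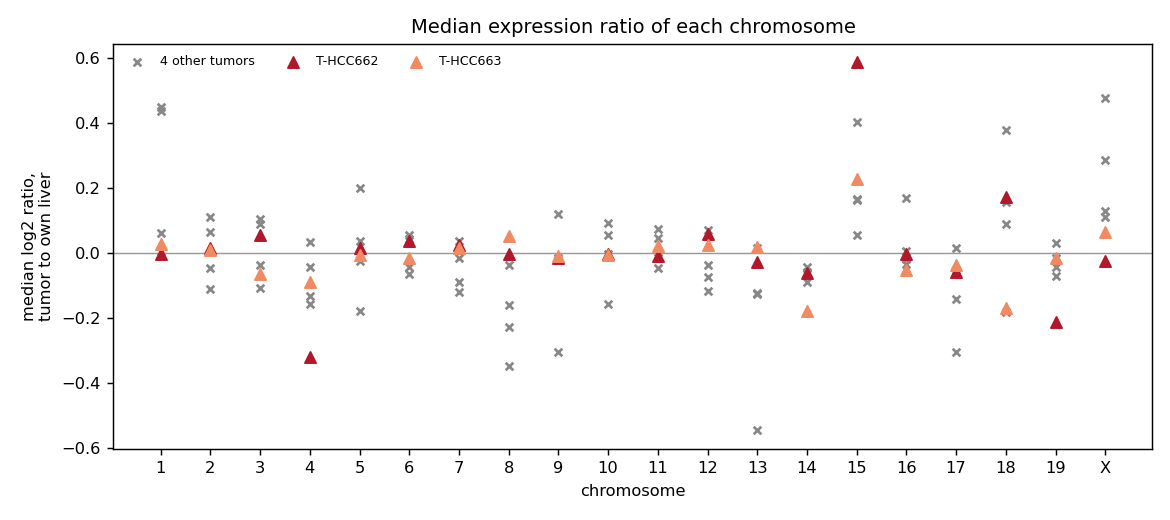
The plot gives, for each chromosome, the median over genes of the log2 ratio of tumor to own liver less the median of all genes, with triangles for T-HCC662 and T-HCC663 and crosses for the 4 other tumors. Chromosome 15 of T-HCC662 is the highest point at 0.59, and its chromosome 4 lies at -0.32.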

How the data were processed

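Per the labels and the study's methods, the authors sequenced poly(A) RNA of bulk liver and tumor tissue as paired ends, mapped it by Subread onto mm10 extended with mCherry, and used featureCounts 1.6.4 to count reads per gene. The deposited values are raw read counts of 24421 gene symbols per library, with no normalization. Read strand and the handling of reads with several alignments were not given in the sources used here. The authors' own tests corrected for the sequencing run, which is not given per sample, so run and group could not be separated.

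The counts were tested with edgeR 4.0.16 (R 4.3.3) with TMM scaling, filterByExpr on 6 groups of 2 libraries (15182 genes kept) and the quasi-likelihood F test over all 12 libraries, so that the spread of the other 4 groups entered the error. Benjamini-Hochberg adjusted p under 0.05 was the threshold, and the SE is the log2 fold change over the square root of F. Each library is 1 tissue of 1 mouse, and the main fit treated the tumor and liver of a mouse as independent. Its p values measure the spread between libraries within the 6 groups. In the paired fit they measure the spread between mice of the difference of tumor and liver. The difference from the other tumors is the contrast with the mean of the 2 other p21+/Tert and the 2 p21+/TertCi tumors, each less their livers. Pair ratios used CPM plus 0.5.

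Tumors and livers are paired because they come from the same mice. Their deviations from the group means had r of 0.176 and 0.048 for the mice of T-HCC662 and T-HCC663 and of 0.0397 to 0.532 for the other 4. T-HCC662 had its highest r with NT662, but NT662 had a higher one with TCi-HCA984 (0.2). T-HCC663 had a higher r with NT981 (0.234) and NT941 (0.175) than with NT663. The 0.532 of TCi-HCC981 and TCi-HCA984 was mirrored by -0.532 with their livers exchanged. These r values therefore do not single out the own liver for every tumor, and the pairing rests on the mouse numbers.

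The members and the gene lists were chosen with earlier results of these data known. The genes named are the 10 of smallest p in each direction that changed the same way in both mice, the 6 of smallest p in each direction for the difference from the other tumors, the 4 in each direction with the widest gap between the tumors among genes of at least 10 CPM in 1 of the 4 libraries, called list members (up to 6 in each direction), uncalled ones by value, and the genes of the design. Alternatives were RLE factors, every gene with at least 1 count, DESeq2 1.42.0, only the libraries compared, the mouse as a block, all 6 livers as reference, each library left out and, chosen after seeing the data, the 5 livers other than NT662, labelled p_961.

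On simulated counts with 200 genes changed, drawn from the means of these samples, edgeR found 150 (62 of 100 changed 4-fold and 88 of 100 changed 8-fold) with 7 false calls, the paired fit 113 with 5, and DESeq2 176 with 73. Positions are those of GENCODE (GRCm38) (23376 symbols matched directly, 669 by a synonym, 376 not). Near-identical copies are genes that minimap2 2.31-r1302 aligned over 200 bases or more at 95% identity or above.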

Additional observations from a re-analysis of the deposited data

Results flagged for a closer look

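For 12 genes the change from liver to tumor differed between the Ctnnb1-mutated and the other tumors by an interaction term in edgeR, the 6 with the smallest p in each direction. Upward, the log2 difference was 6.29 for Rhbg (adjusted p = 0.000694), 6.05 for Lhpp (adjusted p = 0.00302), 4.79 for Axin2 (adjusted p = 0.00326), 4.0 for Gstm2 (adjusted p = 0.00302), 3.56 for Tlr12 (adjusted p = 0.00302) and 3.24 for Plbd1 (adjusted p = 0.00142). Tlr12, an innate immune receptor gene, was at 51.4 and 66.8 CPM in the tumors, 14.4 and 11.6 CPM in their livers and 8.59 to 13.7 CPM in the other tumors. Plbd1 was at 75.2 and 63.0 CPM, 25.5 and 22.2 CPM and 8.06 to 30.1 CPM. Against the 5 livers other than NT662, the tumors' own change missed the threshold for both (adjusted p = 0.0718 and 0.228).

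Downward, the log2 difference was -7.63 for Hal (adjusted p = 0.00142), -6.86 for Cyp2f2 (adjusted p = 0.00142), -5.77 for Sfxn1 (adjusted p = 0.00142), -5.55 for Spry4 (adjusted p = 0.00142), -5.1 for Mn1 (adjusted p = 0.00142) and -4.53 for Itih5 (adjusted p = 0.00142). Mn1 was at 16.998 to 23.9 CPM in the other tumors and Itih5 at 132 to 226 CPM, against 7.51 to 12.2 CPM in their livers.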

How the results depend on the processing

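The counts of genes that rose, that fell and that differed from the other tumors stayed within 1.5 times their values with RLE size factors (188, 186 and 155). With every gene of at least 1 count they were 289, 242 and 261, with DESeq2 770, 615 and 848, and with only the 4 libraries compared 430 rose and 300 fell. DESeq2 made 73 false calls in the simulation, which was drawn with edgeR's own dispersions and so cannot rank the 2 tools. With all 6 livers as reference 719 rose and 439 fell, 324 of the 365 among them, and with the 5 other livers 547 and 305. With the mouse as a block, 595 rose, 441 fell and 460 differed. With 1 library left out, 3 to 117 rose, 32 to 75 fell and 38 to 270 differed. The cause of these shifts was not tested, beyond fewer libraries in the fits with 1 left out.

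Rhbg, Eps8l3 and the 10 named genes that fell kept their call in every alternative run. Signs turned for the genes that follow. The mouse as a block gave log2 changes of -1.005 for Irx1, -1.73 for Cdh1 and -0.74 for Xlr3a. All 6 livers gave 0.40 for Xist, and the 5 other livers gave 0.52 for Xist, -0.0073 for Ctnnb1 and 0.025 for Itih5. With 1 library left out, the log2 change ran from -3.86 to 4.48 for Lamc3, -6.89 to 2.30 for Irx1, -5.61 to 1.20 for Cdh1, -1.57 to 3.76 for Gsn, -6.25 to 12.63 for Fmr1nb, -3.04 to 3.04 for Cyp17a1, -7.03 to 2.55 for Xlr3a, -0.12 to 0.27 for Ctnnb1 and -1.01 to 0.35 for Xist. Of these, Cdh1 passed the threshold once, without T-HCC663 (adjusted p = 0.0314). In the simulation, which drew all 12 libraries without a mouse effect, edgeR found 62 of 100 genes changed 4-fold.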

Other observations

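Genes of lipid synthesis and oxidation were called in some fits but not in others. Of 11 fatty acid synthesis, 12 fatty acid oxidation and 12 cholesterol synthesis genes none passed the edgeR test in either direction, alone or paired by mouse, and at an unadjusted p under 0.05 there were 1, 3 and 2, all higher. Over all 15182 genes, 2699 had an unadjusted p under 0.05 in 1 direction or the other. By DESeq2 2 oxidation and 2 cholesterol genes rose. With only the 4 libraries compared, 2 oxidation genes rose and 1 synthesis gene fell, and with all 6 livers 1 synthesis gene rose. In cholesterol synthesis the 2 tumors parted, with a median log2 ratio to the own liver of 1.66 in T-HCC662 and -0.37 in T-HCC663. Of 17 glycolysis genes none was called in edgeR unpaired and 1 rose by DESeq2, with 2 higher and 1 lower at an unadjusted p under 0.05, and the hexokinase gene Hk2, at 46.6 and 18.5 CPM in the tumors and 0.571 and 3.59 CPM in the livers, passed when paired by mouse (adjusted p = 0.0401, and 0.0937 unpaired).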
